A study of Mus musculus with 12 samples.

Results

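The RNA of 10 genes for AP-1 and related basic leucine zipper (bZIP) factors was followed in Myc-CaP cells treated with oxaliplatin (Oxali), interferon γ (IFNγ) or both. The genes were Jun, Junb, Jund, Fos, Fosb, Fosl1, Fosl2, Batf2, Batf3 and Maff, taken by symbol from a count table of 55216 genes. All 10 were in the table, and all 10 passed the filter on low counts that left 13177 genes for testing. Batf2 passed only through its counts in the combinations, so its values are a description with no test. Members called are counted over the other 9, except where Batf2 is said to be included. Myc-CaP is an established mouse prostate cancer cell line of FVB/NJ origin that overexpresses Myc, and all cells here carry that background. The 12 bulk poly(A) RNA-seq libraries were made 48 h after treatment and form 6 groups of 2. These are untreated cells (Ctrl), IFNγ at 200 pg (IFN200) or 2000 pg (IFN2000), Oxali at 2 μM (Oxali), and Oxali at 2 μM with IFNγ at 200 pg (Combo200) or 2000 pg (Combo2000). The labels give the IFNγ dose with no volume.

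AP-1 is a dimer of bZIP proteins that binds DNA through its basic region. Jun, Junb and Jund can pair with each other or with a partner of the Fos family (Fos, Fosb, Fosl1, Fosl2), whereas Fos proteins need a Jun partner to form a stable dimer. Growth factors, stress and DNA damage act on AP-1 through MAP kinases, which phosphorylate the proteins and switch on several of the genes. Batf2 and Batf3 are small bZIP factors that pair with Jun proteins and can bind DNA together with interferon regulatory factors (IRFs). Maff is a small Maf protein, which lacks a transactivation domain and pairs with itself or with factors such as Nfe2l2.

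To show what lies next to the start sites of the genes on which the results turn, 5 promoters from RefSeq on GRCm38.p6 are printed. They belong to the 4 members that were higher with Oxali in every comparison of the drug, and to Batf3, which was higher in the combinations. Each runs 5′ to 3′ on the gene's strand, from 250 bases before the start site to 50 after it. Capitals mark matches to the motifs searched.
Jun, chr4:95052173-95052472, minus strand: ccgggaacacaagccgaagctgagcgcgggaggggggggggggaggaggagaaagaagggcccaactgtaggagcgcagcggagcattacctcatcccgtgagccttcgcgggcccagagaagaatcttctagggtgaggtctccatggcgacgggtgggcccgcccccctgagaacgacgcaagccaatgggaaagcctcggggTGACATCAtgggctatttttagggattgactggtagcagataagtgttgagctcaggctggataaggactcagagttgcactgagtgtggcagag
Junb, chr8:84978699-84978998, minus strand: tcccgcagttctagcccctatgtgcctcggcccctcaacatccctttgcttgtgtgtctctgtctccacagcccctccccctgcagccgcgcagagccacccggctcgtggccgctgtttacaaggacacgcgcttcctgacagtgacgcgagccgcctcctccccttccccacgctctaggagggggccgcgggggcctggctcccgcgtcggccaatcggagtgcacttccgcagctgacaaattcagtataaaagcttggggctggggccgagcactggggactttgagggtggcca
Fosb, chr7:19309996-19310295, minus strand: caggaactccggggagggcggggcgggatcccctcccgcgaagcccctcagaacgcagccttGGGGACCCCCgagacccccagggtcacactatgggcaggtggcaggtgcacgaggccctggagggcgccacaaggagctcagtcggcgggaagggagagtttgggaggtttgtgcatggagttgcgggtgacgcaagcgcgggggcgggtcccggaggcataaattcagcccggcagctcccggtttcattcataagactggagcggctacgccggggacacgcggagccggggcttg
Fosl2, chr5:32136222-32136521, plus strand: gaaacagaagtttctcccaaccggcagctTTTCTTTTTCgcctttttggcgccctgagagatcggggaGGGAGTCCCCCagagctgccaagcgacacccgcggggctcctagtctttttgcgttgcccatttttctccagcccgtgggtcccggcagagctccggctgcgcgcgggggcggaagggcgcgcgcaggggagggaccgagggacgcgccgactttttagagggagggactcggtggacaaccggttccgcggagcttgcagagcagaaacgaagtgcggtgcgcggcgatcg
Batf3, chr1:191098164-191098463, plus strand: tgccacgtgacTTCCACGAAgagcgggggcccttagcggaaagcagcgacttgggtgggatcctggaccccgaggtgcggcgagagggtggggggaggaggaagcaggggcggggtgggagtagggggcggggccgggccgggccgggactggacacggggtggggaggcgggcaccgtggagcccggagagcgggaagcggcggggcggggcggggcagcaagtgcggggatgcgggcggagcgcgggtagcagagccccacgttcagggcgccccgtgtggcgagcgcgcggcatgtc

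On GRCm38 the gene models of the members lie at chr4:95049034-95052222 (Jun, minus strand), chr8:84974484-84978718 (Junb, minus), chr8:70698949-70700616 (Jund, plus), chr12:85473890-85477273 (Fos, plus), chr7:19302696-19310051 (Fosb, minus), chr19:5447547-5455946 (Fosl1, plus), chr5:32135801-32157842 (Fosl2, plus), chr19:6140983-6172476 (Batf2, plus), chr1:191097847-191108945 (Batf3, plus) and chr15:79346621-79359076 (Maff, plus). Jun, Junb and Jund have a coding transcript of a single exon. Genes on the opposite strand share 7.28% of the exon bases of Jun (Junos), 7.52% of those of Junb (Prdx2) and 2.02% of those of Batf2 (Arl2), so reads there could belong to either gene.

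The motifs searched on both strands were the AP-1 site TGANTCA (TRE), its relatives TGACGTCA (CRE) and TGACATCA, the STAT element TTCNNNGAA (GAS), the core of the interferon-stimulated response element (ISRE, a pair of GAAA steps with 2 bases between them), the CArG box and the NF-κB consensus. Jun held TGACATCA with its first base 45 bases before the start site, a sequence found in 3.62% of 32851 promoters. In Fosb the capitals mark an NF-κB consensus, found in 4.51% of promoters. Fosl2 held the ISRE core (3.44% of promoters), read on the opposite strand, and 2 overlapping NF-κB matches. In Batf3 the capitals mark a GAS match (8.3% of promoters). Junb held none of the 7 motifs in this window. TRE itself was found in 7.81% of promoters, CRE in 1.79% and the CArG box in 1.63%. RefSeq entries were found for 8 members. The RefSeq start of Jund lies 1210 bases before the start of its gene model given above, so its window is not described. Those of Fosl2 and Batf3 lie 671 and 567 bases inside their gene models. The other promoters held a NF-κB match in Fos and matches to CRE, GAS, TGACATCA and NF-κB among 3 start sites of Maff. A match is a description of letters and was not measured as binding.

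Library totals ran from 18749975 to 25931516 counts, so 3 counts, the limit that a count of 0 allows, correspond to 0.111 to 0.167 CPM (counts set to a common library total, with TMM scaling). Groups were taken from the sample titles, because the agent label of the 6 single-treatment libraries names another treatment than the title. By agent, the IFN200 pair would be Oxali, the IFN2000 pair IFNγ at 200 pg and the Oxali pair IFNγ at 2000 pg. The mean log2 ratio to Ctrl of 16 p53 targets was 0.50 to 0.58 in the 6 libraries titled with Oxali and at most 0.05 in the other libraries. That of 13 IFNγ targets was at least 3.51 in the combinations and 2.32 and 2.35 in the IFN2000 pair. It was 0.95 and 1.08 in the Oxali pair, and 0.56 and 0.59 in the IFN200 pair. The mean of the p53 targets does not hold for each gene. Of the 16, 9 were called higher and 4 lower in Oxali against Ctrl, where 34.8% of all genes were higher and 32.8% lower. The 9 include Fas, with 0 to 7 counts in the libraries without Oxali and 23 to 79 in those with it. Fas passed the filter only through the libraries with Oxali, so its call is no support. It also enters the mean of the p53 targets. Of 8 markers of prostate luminal epithelium, Krt8 and Hoxb13 were expressed (group means of 18.6 to 23.1 and 29.5 to 43.1 CPM), but Epcam was at 0 in all 12 libraries, Tmprss2 reached 1 count and Krt18 and Cdh1 at most 6. A pair of libraries stood apart. IFN2000 replicate 2 held 242 counts of 9 T cell markers (10.4 CPM, with Cd3d at 13 counts and Ptprc at 64), against 0.177 to 1.85 CPM elsewhere, and IFN200 replicate 1 held 238 counts of 10 heart muscle markers (10.3 CPM), against 0.834 to 6.26 CPM elsewhere. Calls of members that were lost without these libraries are described below. Family shares, counts of the other gene lists and most folds that use them are given with them only.

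With Oxali, some members of both the Jun and the Fos family were higher and others were not called. Against Ctrl, 5 of the 9 members were higher (Jun, Junb, Jund, Fosb and Fosl2) and Maff was lower, with an adjusted p under 0.05 in edgeR's quasi-likelihood test. The response of all genes was broad: 34.8% of the 13177 genes were higher and 32.8% lower, so these counts are to be read against a background in which 67.6% of genes were called. The median log2 fold change was 0.41 over the 9 members other than Batf2 and 0.02 over all genes tested. In bulk RNA, a change in the number of cells that express a gene and a change in RNA per cell cannot be told apart.

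**Figure D1:**
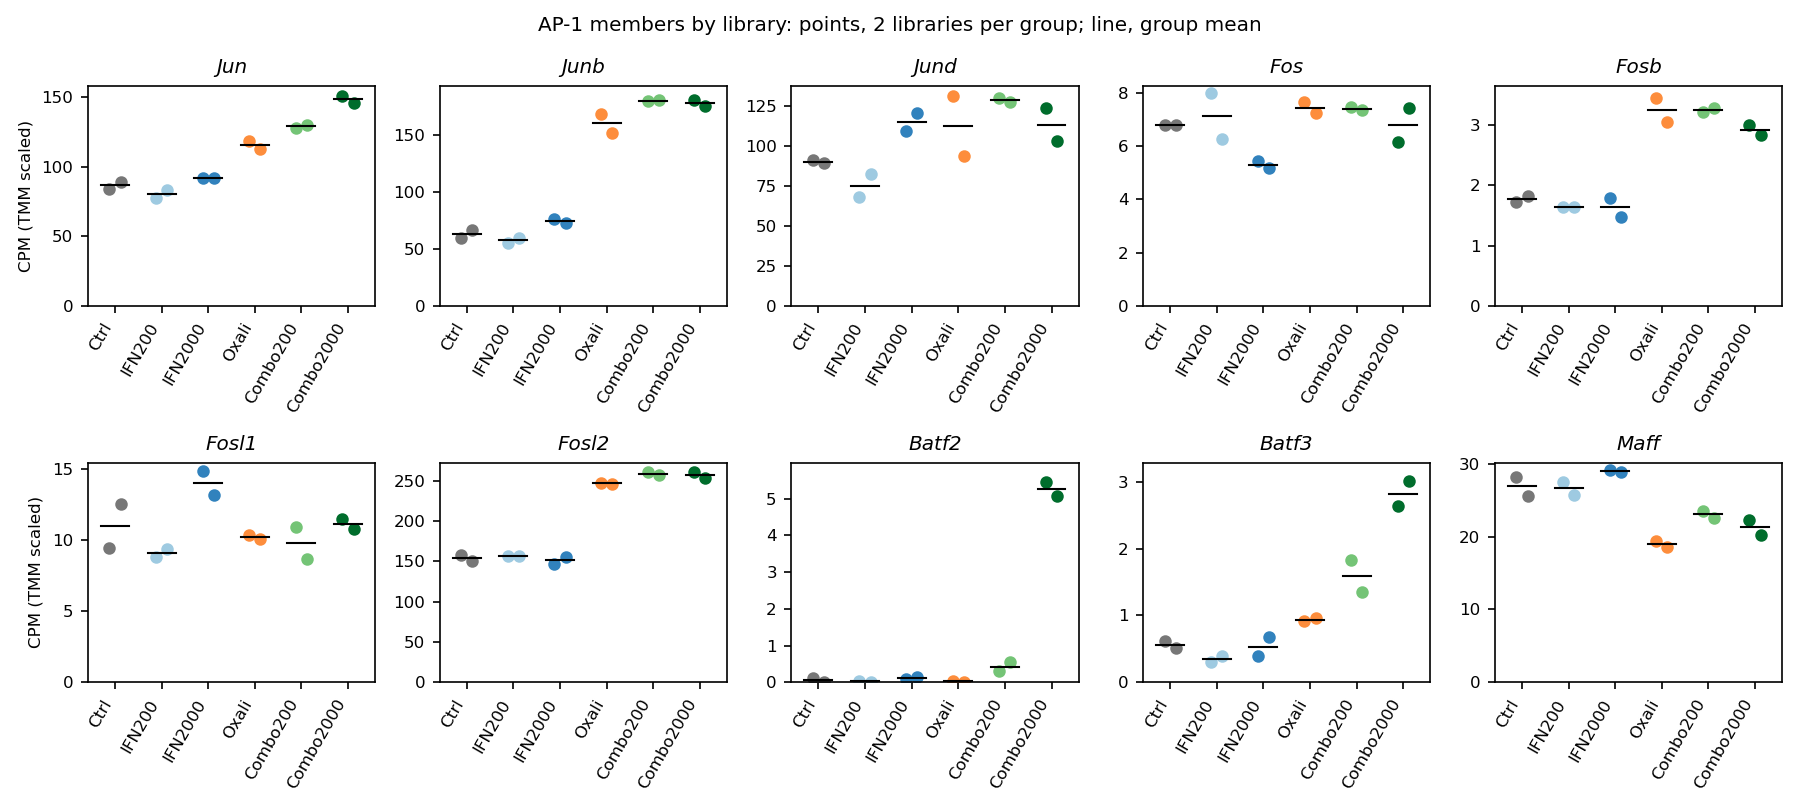
Level of each of the 10 members in every library (vertical axes, TMM-scaled CPM from 0; a different range in each panel) in the 6 groups (horizontal axes); points are single libraries, 2 per group, and lines are group means. Jun, Junb, Fosb, Fosl2 and Batf3 were higher in each of the 6 libraries with Oxali than in the 6 without it. Batf2 reached 5.08 and 5.44 CPM in Combo2000, and Maff was lower with Oxali.

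Junb had the largest fold change of the 3 Jun genes in every comparison of the drug. Its product forms AP-1 dimers that are often weaker activators than those of Jun. Ctrl libraries held 59.6 and 66.3 CPM of Junb, and Oxali libraries 168.7 and 151.7. With the low dose of IFNγ its level was 55.0 and 59.7 without the drug and 179.6 and 180.4 with it. With the high dose it was 76.5 and 72.8 without the drug and 180.5 and 175.2 with it. All 6 libraries with Oxali lay above all 6 without it. A lack of overlap, here and for the members below, is given without the share of all genes that separate in the same way. With 67.6% of genes called in Oxali against Ctrl, it is not read as a trait of the members. The rise with Oxali was 2.54-fold (log2 1.35, SE 0.06, adjusted p = 1e-13), with 3.14-fold in Combo200 against IFN200 and 2.38-fold in Combo2000 against IFN2000. The 3 groups with Oxali were close to each other: Combo200 and Combo2000 differed from Oxali by 0.17 and 0.15 on the log2 scale, which did not pass the test (adjusted p = 0.15 and 0.136).

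Jun, the founding member of the family and the main target of the JNK kinases, rose less with Oxali but further with the combination. Jun was at 84.1 and 89.3 CPM in Ctrl and at 118.6 and 112.3 in Oxali. IFN200 libraries held 77.4 and 83.2 CPM, and the matching Combo200 libraries 128.2 and 130.3. IFN2000 libraries held 91.8 and 91.6 CPM, and the Combo2000 libraries 150.7 and 146.0. The groups with Oxali followed the order of the IFNγ dose, with no overlap between neighbouring groups. The share of all genes that follow this order is not given, so the order is not read as a trait of Jun. Against Ctrl, Jun was 1.33-fold higher in Oxali (log2 0.41, SE 0.05, adjusted p = 1.82e-07) and 1.71-fold higher in Combo2000 (log2 0.77, SE 0.05, adjusted p = 1.08e-11). Without Oxali, neither IFN200 (log2 -0.11, 95% interval -0.21 to -0.01, adjusted p = 0.785) nor IFN2000 (0.08, adjusted p = 0.275) differed from Ctrl in the test adjusted over all genes. Of the neighbouring groups with Oxali, Combo200 and Oxali (0.16, interval 0.07 to 0.26, adjusted p = 0.08) did not pass that test. Combo2000 and Combo200 did (log2 0.20, SE 0.04, adjusted p = 0.019). Jun was the one member of the 9 called between those groups, where 1.21% of all genes were higher and 1.37% called. Its call was lost when any of the 4 libraries was left out, with adjusted p from 0.0804 to 0.276.

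Jund, the member that resting cells usually express steadily, varied more between replicates. Ctrl libraries gave 90.8 and 89.1 CPM, and Oxali libraries 131.1 and 93.8. At 200 pg of IFNγ Jund stood at 67.8 and 82.2 CPM alone and at 129.9 and 127.6 in the combination. At 2000 pg it stood at 109.4 and 120.2 CPM alone and at 123.5 and 102.8 in the combination. The 2 Oxali libraries were far apart, and the lower of them lay close to Ctrl. The call in Oxali against Ctrl (log2 0.32, SE 0.11, adjusted p = 0.0155) rested on Oxali replicate 1, without which the difference was 0.06 (adjusted p = 0.647), and it was also lost without either Ctrl library (0.0739 and 0.0962) and with DESeq2 (0.109). In Combo2000 against Ctrl (log2 0.33, SE 0.11, adjusted p = 0.0115) the call was lost with DESeq2 (0.101) and without either Ctrl library or Combo2000 replicate 2 (0.0639 to 0.244). Combo2000 against IFN2000 showed a difference of -0.02 (95% interval -0.24 to 0.21). The annotated exons of Jund overlap those of the gene Gm11175 on the opposite strand over 52.6% of their length. Gm11175 had 0 counts in all 12 libraries, which does not show how reads in the overlap were counted. The strand setting of the counting is not known here, so the level of Jund is uncertain.

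Fosl2, which encodes Fra-2, was the most abundant RNA of the Fos family per kb of exon. Fosl2 had 158.0 and 150.8 CPM in Ctrl against 247.1 and 246.7 in Oxali. The low IFNγ dose gave 157.3 and 156.8 CPM alone and 260.6 and 257.2 with the drug. The high dose gave 147.2 and 155.2 CPM alone and 261.4 and 253.3 with the drug. The 2 sets of 6 libraries, with and without Oxali, did not overlap, and within each set the groups lay close together. The rise with Oxali was 1.60-fold (log2 0.68, SE 0.04, adjusted p = 1.25e-11), and 1.65-fold and 1.70-fold at the low and high IFNγ dose.

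Fosb, an immediate early gene that is usually silent in resting cells, was rare and rose with the drug. Ctrl libraries were at 1.72 and 1.82 CPM, and Oxali libraries at 3.45 and 3.05. Under the low IFNγ dose Fosb was at 1.65 and 1.63 CPM, or 3.23 and 3.28 with Oxali added. Under the high dose it was at 1.80 and 1.47 CPM, or 3.00 and 2.84 with Oxali added. Again all libraries with Oxali lay above all without it. The rise was 1.83-fold in Oxali (log2 0.87, SE 0.19, adjusted p = 0.000506), 1.98-fold in Combo200 against IFN200 and 1.78-fold in Combo2000 against IFN2000.

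Fos itself, the classical immediate early gene, was not called with Oxali at 48 h. Fos had 6.78 and 6.79 CPM in Ctrl and 7.64 and 7.25 in Oxali. Its level was 7.98 and 6.27 CPM in IFN200 against 7.45 and 7.38 in Combo200. It was 5.44 and 5.17 CPM in IFN2000 against 6.15 and 7.45 in Combo2000. The lowest libraries were both of IFN2000. The difference between Oxali and Ctrl was 0.13 on the log2 scale (95% interval -0.14 to 0.41, adjusted p = 0.379). Fos was higher in Combo2000 than in IFN2000 (log2 0.35, SE 0.13, adjusted p = 0.0236), a call that was lost with DESeq2 (0.104), without either IFN2000 library (0.054 and 0.119) and without Combo2000 replicate 3 (0.218).

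Fosl1, which encodes Fra-1, was not called with Oxali. Ctrl libraries had 9.40 and 12.5 CPM of Fosl1, and Oxali libraries 10.4 and 10.1. The IFN200 pair had 8.81 and 9.32 CPM and the Combo200 pair 10.9 and 8.65. The IFN2000 pair had 14.8 and 13.1 CPM and the Combo2000 pair 11.4 and 10.8. The IFN2000 libraries were the highest. Oxali against Ctrl gave -0.11 on the log2 scale (95% interval -0.38 to 0.16, adjusted p = 0.472). Combo2000 was lower than IFN2000 (log2 -0.33, SE 0.11, adjusted p = 0.0146), but not without IFN2000 replicate 2, the library with T cell markers (-0.25, adjusted p = 0.12), nor without Combo2000 replicate 3 (0.0853). Fosl1 shares 57.2% of its exon length with Ccdc85b on the opposite strand, which had 864 to 1711 counts, and the strand setting of the counting is not known here, so the level of Fosl1 is uncertain.

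Maff was the one member that was lower with Oxali in every comparison of the drug. Maff was at 28.2 and 25.6 CPM in Ctrl and at 19.4 and 18.6 in Oxali. Cells given the low IFNγ dose had 27.5 and 25.7 CPM, and 23.6 and 22.6 when Oxali was added. Cells given the high dose had 29.1 and 28.9 CPM, and 22.3 and 20.2 when Oxali was added. All libraries with Oxali lay below all without it. In Oxali, Maff fell by 0.50 on the log2 scale (SE 0.07, adjusted p = 6.44e-06). The fall was 0.22 in Combo200 (log2 -0.22, adjusted p = 0.00961), where the call was lost without Ctrl replicate 1 (0.112) or Combo200 replicate 3 (0.0634).

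The drug was compared with its matching control 3 times in libraries that are not shared: Oxali against Ctrl, Combo200 against IFN200 and Combo2000 against IFN2000. Jun, Junb, Fosb and Fosl2 were higher in all 3 comparisons and Maff lower in all 3, whereas 29.6% of all genes were higher and 26.9% lower in all 3. In Combo200 against IFN200, 6 of the 9 members were higher and 1 lower, where 36.5% of all genes were higher and 33.5% lower (69.9% called). In Combo2000 against IFN2000, 6 were higher and 2 lower, where 38.5% of all genes were higher and 33.8% lower (72.3% called). With Batf2 included, 6 members were called in Oxali against Ctrl, 8 in Combo200 against IFN200 and 9 in Combo2000 against IFN2000, and 6, 7 and 8 without IFN200 replicate 1 and IFN2000 replicate 2. For Maff the call against IFN200 was lost without IFN200 replicate 1 (adjusted p = 0.0931) or Combo200 replicate 3 (0.0717).

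**Figure D2:**
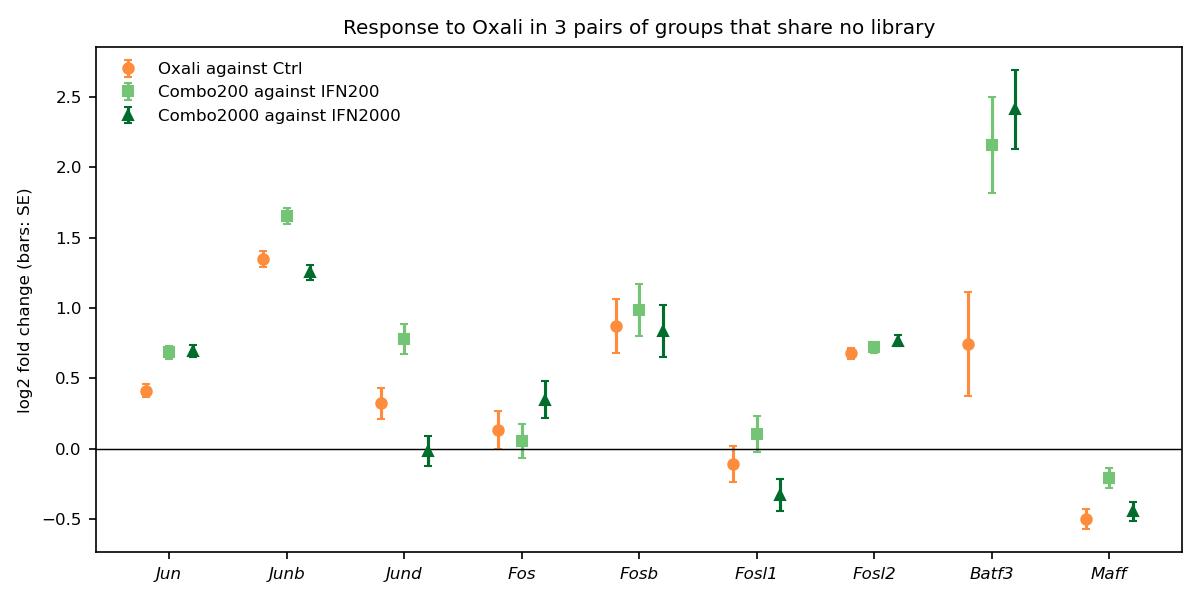
Log2 fold change (vertical axis; bars, SE from the edgeR fit) of 9 members (horizontal axis) in Oxali against Ctrl, Combo200 against IFN200 and Combo2000 against IFN2000, which share no library; Batf2 is left out because its Ctrl, IFN and Oxali libraries held 3 counts or fewer. Junb lies between 1.25 and 1.65 in all 3 comparisons and Fosl2 between 0.68 and 0.77, while Jund runs from 0.78 to -0.02.

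Some markers of other cell types moved with the drug. In the 6 libraries with Oxali the summed T cell list was at 1.24 to 1.85 CPM, mostly Lck, against 0.177 to 0.564 in the libraries without Oxali other than IFN2000 replicate 2. The heart muscle list was at 3.58 to 6.26 CPM, mostly Tnnt2, against 0.834 to 1.27 in those other than IFN200 replicate 1. The fibroblast list, nearly all Pdgfra, was at 20.9 to 25.6 CPM against 9.95 to 17.3, and the macrophage list, mostly Cd14, at 16.4 to 18.9 against 12.5 to 15.6. Of the macrophage list, Csf1r was at 0 in the 6 libraries without Oxali and at 8 to 19 counts in the 6 with it, and Lyz2 at 0 to 1 and 3 to 11 counts. Cd3d was at 0 in all 6 libraries with Oxali, Adgre1, Itgam and C1qa were at 0 in all 12, and Dcn and Lum reached at most 1 count. The part of these markers in the AP-1 results was not tested.

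The makeup of each family shifted with the drug. The levels of Jund and Fosl1, and the shares that rest on them, carry the uncertainty of the overlaps given above. Per kb of merged exon, the levels in Ctrl ran from Jund (54.0 CPM per kb) through Junb (27.4), Jun (27.2), Fosl2 (15.9), Maff (10.4), Fosl1 (5.39), Fos (2.88) and Batf3 (0.350) to Fosb (0.284). Jun and Junb did not differ beyond their spread in Ctrl (SD 1.15 and 2.06 CPM per kb, n = 2). The sum of the 3 Jun genes was 108 ± 2.47 CPM per kb (SD, n = 2) in Ctrl, 173 ± 22.4 in Oxali, 196 ± 0.282 in Combo200 and 192 ± 11.4 in Combo2000. Jund gave 49.7% of the sum in Ctrl and 38.6% in Oxali, and Junb 25.2% and 40.3%. The share of Junb exceeded that of Jund in every library with Oxali except Oxali replicate 1, so their ranges overlapped in Oxali (38.8 to 41.9% for Junb, 35.7 to 41.6% for Jund). The ratio of Junb to Jun counts, which no scaling changes, was 0.709 to 0.833 in the 6 libraries without Oxali and 1.20 to 1.42 in the 6 with it.

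In the Fos family, Fosl2 gave 62.5 to 67.7% of the sum per kb in the groups without Oxali (65.1% in Ctrl) and 74.5 to 75.9% in those with it. The share of Fosl1 was 21.9% in Ctrl, 27.5% in IFN2000 and 14.7% in Oxali. Fosb was at most 1.61% in every library. The family sum rose from 24.5 ± 0.566 CPM per kb (SD, n = 2) in Ctrl to 34.2 ± 0.292 in Oxali. These shares describe RNA and were not tested.

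**Figure D3:**
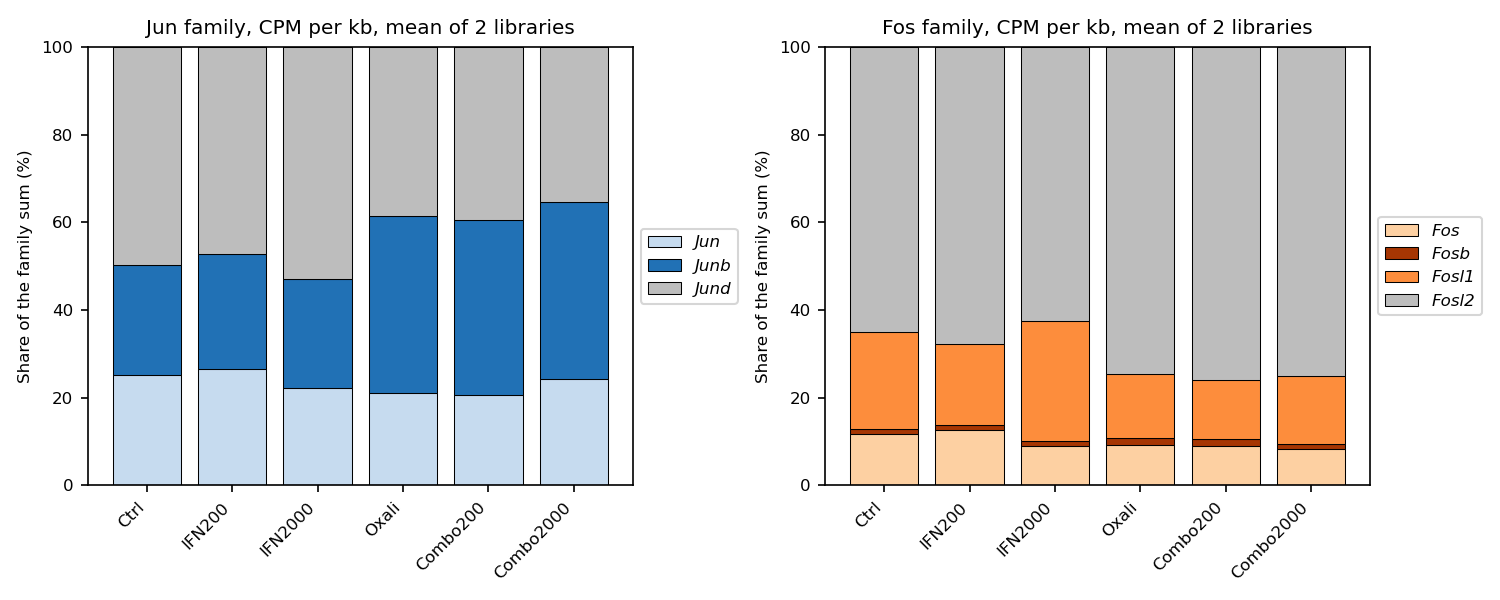
Share of each gene (vertical axis, percent) in the sum of the Jun family (left) and of the Fos family (right), from CPM per kb of merged exon, as the mean of 2 libraries in each of the 6 groups (horizontal axis). The share of Junb is 25.2% in Ctrl and 39.9 to 40.4% in the 3 groups with Oxali, and that of Fosl2 is 65.1% in Ctrl and 74.5 to 75.9% with Oxali.

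At 200 pg of IFNγ alone, no member was called in IFN200 against Ctrl by edgeR (0.114% of all genes were called), and DESeq2 called 0. In edgeR 4 had an unadjusted p under 0.05 (Jun, Junb, Jund and Fosl1, all lower). The share of all genes at that unadjusted threshold is not given, so the 4 cannot be read against a background. At 2000 pg, Junb (log2 0.24, SE 0.06, adjusted p = 0.00887) and Jund (log2 0.35, SE 0.11, adjusted p = 0.0351) were higher than in Ctrl, against 8.39% of all genes higher and 16.9% called in either direction. Junb was lost without Ctrl replicate 1 (0.161) or IFN2000 replicate 2 (0.0681), and Jund with DESeq2 (0.164) or without either Ctrl library, IFN2000 replicate 3 or either Combo200 library (0.0695 to 0.171). Fosl1 (log2 0.34, adjusted p = 0.057) and Fos (log2 -0.35, adjusted p = 0.0892) lay just outside the threshold. Fosl1 passed it with RLE or upper-quartile scaling (0.0473 and 0.0442), with no filter (0.0142), without Ctrl replicate 2 (log2 0.58, adjusted p = 0.0188) and without IFN2000 replicate 3 (0.44, 0.0232). It was at 0.17 (0.501) without Ctrl replicate 1 and at 0.26 (0.344) without IFN2000 replicate 2. Fos passed after correction for gene length and GC content (-0.41, 0.048). The IFN2000 libraries carried a trend with gene length: the rank correlation of the log2 ratio to Ctrl with length over genes was -0.43 and -0.22, against -0.06 to 0.23 in the other libraries.

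Between the 2 doses, IFN2000 against IFN200, Jun (log2 0.19), Junb (0.38), Jund (0.61) and Fosl1 (0.62) were higher and Fos (-0.43) was lower, where 11.3% of all genes were higher and 11.0% lower (22.3% called). This was the comparison most tied to the libraries that stood apart. Without IFN200 replicate 1, 3 members were called, and without both IFN200 replicate 1 and IFN2000 replicate 2 only Junb and Jund were, with Fosl1 at 0.50 (adjusted p = 0.11). Fos was also lost with DESeq2 (0.093), in a fit of those 2 groups alone (0.0541) and without either IFN2000 library (0.0922 and 0.0996).

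Batf3 was higher in both combinations than in Ctrl, and Batf2 had more than 3 counts in the libraries of the combinations alone. Against Ctrl, 6 of the 9 members were higher and 1 lower in Combo200, where 35.6% of all genes were higher and 33.1% lower (68.7% called). The numbers were again 6 and 1 in Combo2000, where 35.7% were higher and 33.5% lower (69.2% called), with Batf3 added to the 5 that were higher in Oxali. Against Oxali alone, none of the 9 was called in Combo200 by edgeR (1.58% of all genes were higher and 1.83% called), and DESeq2 called 0. In edgeR 4 had an unadjusted p under 0.05, a threshold at which the share of all genes is not given. Jun and Batf3 were higher in Combo2000 than in Oxali (3.35% of all genes higher, 4.34% called).

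Batf2 is an interferon-inducible factor of myeloid cells, where it acts with Irf1. Ctrl libraries had 2 and 0 counts, and Oxali libraries 1 and 0. IFNγ alone gave 1 and 0 counts at the low dose and 2 and 3 at the high dose. The combinations gave 7 and 14 counts in Combo200 and 147 and 118 in Combo2000. The 8 libraries without both agents were thus at or under the limit of 3 counts, and Combo2000 reached 5.44 and 5.08 CPM. With those libraries set to 3 counts each, Batf2 was 33.0-fold higher in Combo2000 than in Ctrl. It was 37.4-fold higher than in Oxali and 40.1-fold higher than in IFN2000. Since 3 counts is the limit for a count of 0 alone, these folds are not lower bounds. In the edgeR fit Combo2000 exceeded Combo200 12.1-fold (log2 3.60), which is a description with no test. With the same setting, Batf2 in Combo200 was 2.65-fold higher than in Ctrl, 3.01-fold higher than in Oxali and 3.22-fold higher than in IFN200.

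Batf3, a factor needed by a subset of conventional dendritic cells, was rare in every group. Ctrl libraries had 11 and 10 counts, and Oxali libraries 20 and 20. IFNγ alone gave 7 and 9 counts at the low dose and 9 and 15 at the high dose. The combinations gave 42 and 35 counts in Combo200 and 71 and 70 in Combo2000. The groups with Oxali rose in the order Oxali, Combo200, Combo2000 with no overlap, from 0.921 and 0.954 CPM to 2.63 and 3.02. Here too the share of all genes that rise in this order is not given, so it is not read as a trait of Batf3. Oxali against Ctrl gave 0.75 on the log2 scale (SE 0.37), which did not pass the test (adjusted p = 0.0819). Against Ctrl, Batf3 was 2.82-fold higher in Combo200 (log2 1.50, SE 0.32, adjusted p = 0.00042) and 5.01-fold higher in Combo2000 (log2 2.33, SE 0.29, adjusted p = 6.53e-07). Against the matching IFNγ dose alone it was 4.46-fold and 5.32-fold higher (adjusted p = 1.33e-05 and 1.97e-07). Neither step in this order passed the test adjusted over all genes: Combo200 against Oxali gave 0.75 on the log2 scale (95% interval 0.16 to 1.34, adjusted p = 0.286) and Combo2000 against Combo200 0.83 (interval 0.37 to 1.29, adjusted p = 0.0808). Combo2000 exceeded Oxali (log2 1.58, SE 0.25, adjusted p = 0.000326).

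Whether the response to IFNγ differed with Oxali present was tested as an interaction, the log2 difference of Combo and Oxali minus that of IFN and Ctrl. At 2000 pg, Jun was called (0.28, SE 0.06, adjusted p = 0.0223), where 2.12% of all genes were higher and 2.72% were called. The 2 responses behind it share no library: Jun was 0.36 higher in Combo2000 than in Oxali (adjusted p = 1.08e-05) and 0.08 higher in IFN2000 than in Ctrl (0.275). The call was lost with DESeq2 (0.0557) and without Ctrl replicate 1, Ctrl replicate 2, Oxali replicate 2, Combo200 replicate 3 or Combo2000 replicate 2 (0.0533 to 0.158). For Batf3 the interaction was 1.67 (95% interval 0.626 to 2.705) with an adjusted p of 0.0805. For Batf2 no value is given, since the libraries without both agents were at the limit of counting. For Junb it was -0.09 (adjusted p = 0.61). For Jund it was -0.34 (0.267), with -0.56 (0.0393) without Oxali replicate 2, -0.07 (0.865) without Oxali replicate 1 and -0.33 (0.000158) with no filter.

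At 200 pg none of the 9 was called by edgeR in the interaction (0.698% of all genes were), and DESeq2 called 0. In edgeR 5 had an unadjusted p under 0.05, again without the share of all genes at that threshold. Jun came closest (0.27, SE 0.07, adjusted p = 0.0604) and passed in a fit of those 4 groups alone (0.0268), and over the alternatives its adjusted p ran from 0.00603 to 0.469.

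**Figure D4:**
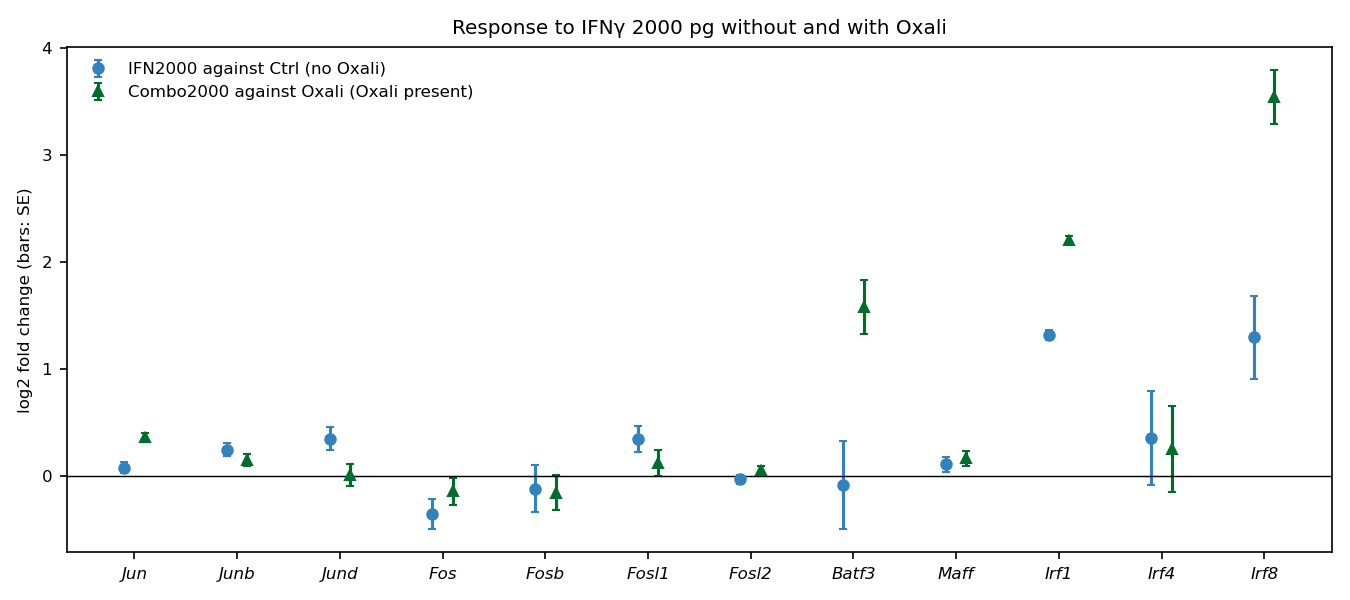
Log2 fold change (vertical axis; bars, SE from the edgeR fit) of 9 members and 3 genes of the Batf partner list (horizontal axis) in IFN2000 against Ctrl and in Combo2000 against Oxali, which share no library. Batf3 (-0.09 and 1.58) and Irf8 (1.296 and 3.54) lie apart in the 2 comparisons, and Fosl2 (-0.03 and 0.06) does not.

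The partners of Batf factors were read beside them. Irf1, a transcription factor induced by IFNγ, was at 37.8 ± 1.14 CPM (SD, n = 2) in Ctrl, 94.2 ± 0.456 in IFN2000, 95.2 ± 1.55 in Oxali and 438 ± 9.26 in Combo2000. Irf1 rose with Oxali alone (log2 1.33, SE 0.05). Irf8, a partner of Batf3 in dendritic cells, had 12 and 9 counts in Ctrl, 18 and 10 in Oxali, and 202 and 184 in Combo2000. In IFN2000 it had 43 counts in the library with T cell markers and 20 in the other. Irf4 had adjusted p-values of 0.0764 or more in the comparisons of groups, and its counts in IFN2000 were 126 and 19, the higher again in the library with T cell markers. The interaction at 2000 pg was called for Irf1 (0.88) and Irf8 (2.25, adjusted p = 0.0288). Without the library with T cell markers the value for Irf8 was 2.86 (0.00354), and its call was lost without either Ctrl library, among others (0.0933 and 0.307).

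The lists of other genes that follow are to be read against the 34.8% of all genes that were higher and the 32.8% that were lower in Oxali against Ctrl. Of 12 other bZIP genes that can join AP-1 or Maf dimers, 9 were tested, 4 were higher and 3 lower in Oxali against Ctrl, with a median of 0.12 on the log2 scale. Maf rose from 29.8 ± 0.130 to 63.9 ± 1.99 CPM (SD, n = 2; log2 1.10, SE 0.05). Atf3, a stress-induced bZIP factor, rose from 14.1 ± 0.220 to 24.6 ± 1.01 CPM (log2 0.80, SE 0.07) and stood at 33.9 ± 1.08 in Combo2000. Mafg, another small Maf gene, fell from 119 ± 2.51 to 70.0 ± 2.50 CPM (log2 -0.77, SE 0.06). Batf had at most 4 counts in any library, in IFN2000 replicate 2.

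Among 12 MAP kinase genes tested, 3 were higher and 4 lower with Oxali (median -0.05), shares near those of all genes. Map3k5, which encodes the stress kinase ASK1, rose (log2 0.55, SE 0.05), while Mapk8, which encodes JNK1, and Map2k1, which encodes MEK1, fell (log2 -0.45, SE 0.05, and -0.41, SE 0.04). Of 8 dual specificity phosphatase genes tested, whose products remove phosphate from MAP kinases, 6 were higher and 2 lower (median 0.59). Dusp10 rose from 6.49 ± 0.134 to 33.5 ± 1.65 CPM (SD, n = 2; log2 2.36, SE 0.08), Dusp8 by 1.40 (SE 0.09) and Dusp1 by 1.04 (SE 0.07) on the log2 scale. Dusp5 had 39 counts in IFN2000 replicate 2 and at most 2 elsewhere.

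Of 16 other immediate early genes tested, 9 were higher and 3 lower with Oxali (median 0.45). Klf10 rose from 21.6 ± 1.05 to 75.1 ± 3.98 CPM (SD, n = 2; log2 1.80, SE 0.06), Klf2 by 1.52 (SE 0.23) and Egr2 by 2.24 (SE 0.51), the last from 3 and 3 counts in Ctrl to 18 and 15. The 3 lower genes, named after their values were seen, were Nr4a1 (-0.67), Nr4a2 (-0.54) and Zfp36 (-0.53).

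Among genes known as AP-1 targets, 13 of 20 were tested, and 9 were higher and 2 lower with Oxali (median 0.60). Plau, which encodes the urokinase plasminogen activator, rose from 1.35 ± 0.613 to 9.13 ± 0.635 CPM (SD, n = 2; log2 2.78, SE 0.19). Hbegf, an EGF receptor ligand, rose from 10.5 ± 0.429 to 27.1 ± 1.58 CPM (log2 1.37, SE 0.09). The lower genes, named after their values were seen, were Plaur (-0.38) and Vegfa (-0.74). In IFN2000 against Ctrl 7 were higher, against 8.39% of all genes. Mmp3 and several other classical targets were at or near 0.

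**Figure D5:**
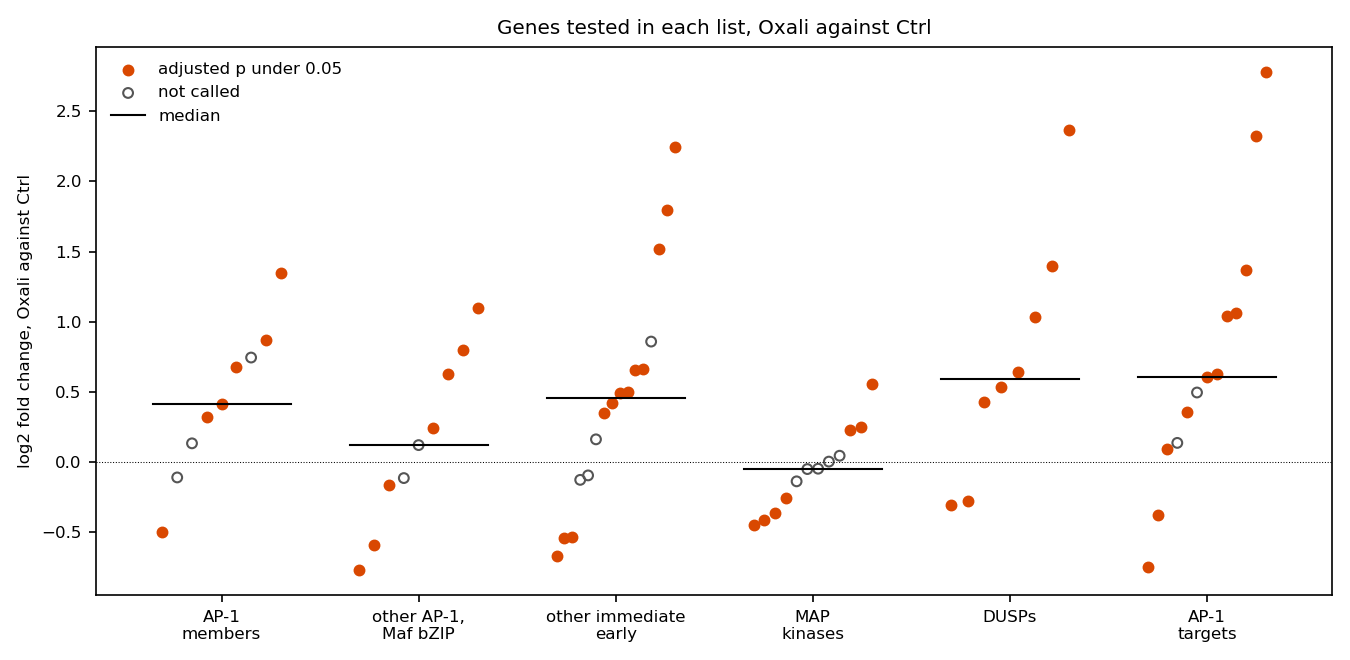
Log2 fold change in Oxali against Ctrl (vertical axis) of each gene tested in 6 lists (horizontal axis; Batf2 left out); filled points have an adjusted p under 0.05 in edgeR, open points do not, and lines are medians. The medians are 0.41 for the members, 0.59 for the dual specificity phosphatases (DUSPs), 0.60 for the AP-1 targets and -0.05 for the MAP kinases. Egr2, among the other immediate early genes, passed the filter only through the libraries with Oxali.

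Across the 12 libraries, the pattern of Jun was most like that of Il4ra (Pearson r = 0.985), Rnf19b (0.983) and Gpat3 (0.983) among 10467 genes compared on log2 CPM. For Batf2 the nearest were Stat3 (0.981), Plaat3 (0.948) and Rnf31 (0.940), and for Fosl1 Akna (0.917), Cherp (0.901) and Ccne1 (0.857). Batf2 held 3 counts or fewer in every library without both agents, so its r values rest mainly on the libraries of the combinations. Among pairs of the Jun and Fos families, Junb and Fosl2 were the closest (0.973) and Fos and Fosl1 the most opposed (-0.712), and over all members Fosb and Maff were (-0.867). The 12 points are 6 treatments in pairs, and no test was run on them.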

How the data were processed

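The table deposited by the authors holds unnormalised counts of reads for each gene symbol in 12 libraries of Myc-CaP cells. Per the labels, poly(A) RNA was sequenced from stranded libraries, and STAR 2.7.3a and RSEM 1.3.0 are named in the submitters' processing notes with build GRCm38. The study's methods name STAR with GENCODE gene models and featureCounts. Use of the strand in counting is not given in the sources used here, so genes that overlap on opposite strands may share reads. Every row named a gene, and 28300 of 55216 genes had no count.

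Genes that passed filterByExpr (count of at least 10, total of at least 15) were fitted in edgeR 4.0.16 (R 4.3.3, limma 3.58.1) with TMM factors, and its quasi-likelihood test was used. All 12 libraries entered 1 model with a mean per group. There were 13 contrasts, of which 2 were interactions. Calls needed an adjusted p (Benjamini-Hochberg, over 13177 genes) under 0.05. SE was derived from the fold change and the F statistic. The labels do not say that replicates came from separate cultures, so p-values measure the spread between these libraries. Replicates differed by more than sampling noise (chi-square per degree of freedom 1.71 to 9.15). The smallest two-sided p of an exact permutation test in groups of 2 is 0.333. The limit of 3 counts is that of a count of 0 and covers counting error only. Folds against libraries at or under it were computed with each such library at 3 counts, so they are not lower bounds. Log2 CPM used a prior count of 2. Exon lengths and overlaps were taken from a GENCODE annotation on GRCm38.

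The alternatives were DESeq2 1.42.0, RLE and upper-quartile scaling, no filter, only the groups compared, the replicate number as a block, correction for length and GC content, and each library left out. Leaving out both libraries that stood apart was added after seeing the data, as were all alternatives for the interactions of Irf1, Irf8 and Vegfa. The members and gene lists were chosen with earlier results of these data known. By the rule for named genes, all members were given in every library, and from each other list at most the 3 called genes with the largest change in Oxali against Ctrl, and the Batf partners. A few genes of these lists are not reported here. The code was tested on simulated counts with known changes.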

Additional observations from a re-analysis of the deposited data

Results flagged for a closer look

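The response to IFNγ differed with Oxali present, by the interaction test of edgeR, for 1 member and for 3 genes of the lists read beside the members. Jun differed at 2000 pg (0.28 on the log2 scale, SE 0.06, adjusted p = 0.0223), but the call was lost with DESeq2 (0.26, adjusted p = 0.0557). With 1 library left out the value for Jun ran from 0.22 to 0.32. Irf1 differed by 1.17 (SE 0.07, adjusted p = 3.62e-09) at 200 pg and by 0.88 (SE 0.07, 7.6e-08) at 2000 pg. Irf8 differed by 2.25 at 2000 pg (SE 0.54, adjusted p = 0.0288), with 43 counts in the IFN2000 library that held T cell markers and 20 in the other. Without that library it was 2.86 (0.00354), and over all alternatives its adjusted p ran from 0.000329 to 0.307. Vegfa, an AP-1 target, had the opposite sign at 2000 pg (-0.35, SE 0.09, adjusted p = 0.0389, with 0.00616 to 0.174 over the alternatives).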

How the results depend on the processing

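The numbers of members called, Batf2 included, kept within 1.5 times their value under every alternative run in Oxali against Ctrl, in both combinations against Ctrl and against IFNγ alone, and in Combo2000 against Oxali. Of 53 calls of single members, 46 were kept with DESeq2, 47 with the replicate block, 49 of 50 in fits of the groups compared, 48 without both libraries that stood apart, and all 53 with RLE scaling, upper-quartile scaling, no filter or the length and GC correction. None of the 53 turned its direction under any alternative. The 53 include calls of Batf2, as do the numbers that follow. Because Batf2 passed the filter only through the combinations, its part in these numbers is no support.

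In IFN2000 against Ctrl, where 2 members were called, DESeq2 and the replicate block each called 1, and leaving out 1 library gave 0 to 2. In Combo200 against Oxali (1 called, Batf2), DESeq2 called 0, the fit with no filter 5, the block 2 and the length and GC correction 2, with 0 to 2 when 1 library was left out. In IFN2000 against IFN200 (5 called), the block called 3, leaving out 1 library gave 3 to 5, and leaving out both libraries that stood apart gave 2. In Combo2000 against Combo200 (2 called), no filter gave 4, the block 1 and leaving out 1 library 1 to 3. In IFN200 against Ctrl, no filter gave 1 call. The interaction at 200 pg (0 called) gave 3 calls with no filter, 2 with only the groups compared and 0 to 3 with 1 library left out, and that at 2000 pg (1 called) gave 0 with DESeq2, 4 with no filter and 0 to 3 with 1 library left out. The causes were not tested. With 1 library left out, the call of Irf8 in the 2000 pg interaction was lost for 9 of 12 libraries and that of Vegfa for 8 of 12, and no call of Irf1 was lost.

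The replicate numbers did not pair the libraries: the correlation of replicate differences between groups with the same numbers ran from -0.240 to 0.106. The block moved the calls as given, and lost Jund in IFN2000 against Ctrl, Maff in Combo200 against Ctrl and against IFN200, Jun and Fos in IFN2000 against IFN200, and Jun in Combo2000 against Combo200.

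Values that turned sign were all uncalled. With the length and GC correction Fosl2 gave -0.014 in the 2000 pg interaction and 0.075 in IFN2000 against Ctrl. Without both libraries that stood apart, Fosl2 gave 0.018 and Batf3 0.27 in IFN2000 against Ctrl, and Fosb 0.10 in the interaction. With 1 library left out, Fosl1 ran from -0.30 to 0.12 in Oxali against Ctrl. In IFN2000 against Ctrl Fosb ran from -0.265 to 0.034, Fosl2 from -0.052 to 0.012 and Batf3 from -0.51 to 0.27. In the interaction at 2000 pg Fosb ran from -0.19 to 0.11 and Maff from -0.026 to 0.12. Depth limits Batf2, which 8 libraries held at 3 counts or fewer.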
